A study of Arabidopsis thaliana with 9 samples.

Results

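Purple acid phosphatases are a plant enzyme family of 29 genes considered here, and this account describes 10 of them that bear on phosphate starvation: PAP10, PAP11, PAP12, PAP14, PAP17, PAP22, PAP23, PAP24, PAP25 and PAP26. The 10 loci were taken by name from the 33602 loci counted in each library. They were chosen with earlier results of these data known, so counts of members set beside all genes describe them and are no independent test. Root tips of 2 to 3 mm were collected from Arabidopsis thaliana seedlings of the Col 0 ecotype at 5 days after germination, and RNA was sequenced in 9 libraries, 1 for each of 9 groups. The stop1 mutant and the almt1 mutant were each grown on low phosphate (5 µM) with 1 mM L-malate added, on low phosphate alone, and on high phosphate (1 mM). The wild type was grown on low phosphate with iron left out and 100 µM ferrozine added to chelate traces of it, on low phosphate alone, and on high phosphate. All plates held a dilute modified MS medium with sucrose. STOP1 is a zinc finger transcription factor and ALMT1 is the malate efflux channel whose gene it activates; the mutant alleles were not given in the sources used here. There was 1 biological replicate per group, so no group has a replicate spread of its own.

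Purple acid phosphatases split phosphate from organic esters, and they owe their name and colour to an iron centre, which in plants is paired with zinc or manganese. Roots short of phosphate make more of them, place several on the root surface, in the cell wall or in the surrounding soil, and use others inside the vacuole to recycle internal phosphate. Much of this response is driven by PHR1, a MYB transcription factor that binds a short palindromic promoter element called P1BS, and is held back by SPX proteins when phosphate is plentiful. In root tips, low phosphate also stops growth through a route in which STOP1, ALMT1, exuded malate and iron take part.

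The P1BS element is shown first. Members that had no counts at high phosphate all carried it near their starts, as did PAP12 and PAP24, which had counts there. PAP10, PAP17 and PAP22 were higher at low phosphate with no match in the stretch searched, which ended 50 bases after the annotated gene start. Their coding starts lie 307, 398 and 203 genomic bases after the gene start, and the bases in between were not searched. The part of the element in these levels was not tested. The pattern searched was GNATATNC, which reads the same on both strands, so each match counts once. A window of 300 bases, 250 before to 50 after the annotated gene start, held a match in 6 of the 10 genes, namely PAP11, PAP12, PAP14, PAP23, PAP24 and PAP25. The same window held it in 7 of the 19 other purple acid phosphatase genes (36.8%) and in 1666 of 26711 promoters (6.24%). Promoter sequence is from RefSeq on the TAIR10.1 assembly, written 5′ to 3′ on the strand of the gene, with matches in capitals. For PAP11, PAP23 and PAP25 the annotated start is the first coding base, so distances for these genes run from there.
PAP11, chr2:7884003-7884062, minus strand: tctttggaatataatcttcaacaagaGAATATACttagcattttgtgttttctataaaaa
PAP23, chr4:7958982-7959041, minus strand: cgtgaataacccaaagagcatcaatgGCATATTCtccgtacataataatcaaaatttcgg
PAP24, chr4:12814576-12814635, minus strand: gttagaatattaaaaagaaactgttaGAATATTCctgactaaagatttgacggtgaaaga
PAP25, chr4:17175981-17176040, minus strand: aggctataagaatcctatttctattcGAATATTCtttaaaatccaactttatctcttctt
PAP14, chr2:19266457-19266706, minus strand: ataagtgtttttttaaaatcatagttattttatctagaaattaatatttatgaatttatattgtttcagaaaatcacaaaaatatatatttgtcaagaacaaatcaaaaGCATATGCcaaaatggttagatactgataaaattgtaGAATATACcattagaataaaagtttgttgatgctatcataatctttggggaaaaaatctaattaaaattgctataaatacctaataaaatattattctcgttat
PAP17, chr3:6089131-6089380, plus strand: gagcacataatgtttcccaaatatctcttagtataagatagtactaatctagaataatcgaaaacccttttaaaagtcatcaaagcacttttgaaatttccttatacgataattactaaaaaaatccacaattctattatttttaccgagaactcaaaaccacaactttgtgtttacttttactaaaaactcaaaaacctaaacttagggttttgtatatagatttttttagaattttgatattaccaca
The stretch before PAP14 held 2 matches, 141 and 104 bases before its start, and those of PAP11, PAP23, PAP24 and PAP25 lay 101, 96, 153 and 157 bases before the start. PAP17 is printed for contrast, since it held none in these 250 bases. PAP10, PAP17 and PAP22 held none within 1000 bases before the start either, and PAP26 held 1 at 902 bases. PAP12 also held none there, since its only match lies 32 bases after the start. The wider window of 1000 bases held a match in 6 of the 10 genes, with PAP26 in place of PAP12. It held a match in 11 of the 19 others and in 20.3% of all promoters. A match is a run of letters and not a measured binding site.

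**Figure D1:**
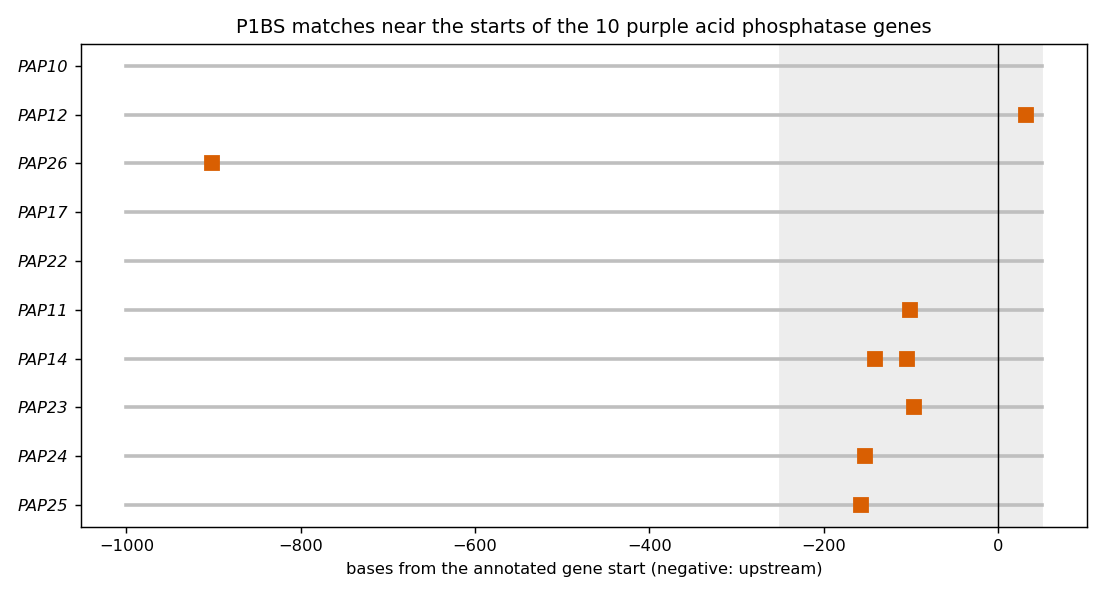
Matches to the P1BS pattern (squares) along each of the 10 genes, with distance from the annotated gene start in bases on the horizontal axis and the 300-base window shaded. Matches 96 to 157 bases before the start are seen in PAP11, PAP14, PAP23, PAP24 and PAP25, while the match of PAP12 lies 32 bases after the start and that of PAP26 902 bases before it.

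The 9 libraries held 20619740 to 37189056 counts assigned to genes. In the wild-type library on low phosphate 44.9% of recorded reads aligned to more than 1 place and were not counted, against 4.19% to 14.3% in the other 8 libraries. Reads ambiguous between genes made up 2.55% to 2.65% in the 3 libraries with malate or low iron, against 0.956% to 1.69% in the other 6, so that treatment and library set cannot be told apart there. STOP1 had 103 to 173 CPM in all 9 libraries, whereas ALMT1 had 0 to 2 counts in the 3 stop1 libraries and 575 to 3232 counts in the 6 others, almt1 libraries included; without the alleles, the transcript level of either gene does not check the label of its own mutant. All 9 root tip markers (PLT1, PLT2, PLT3, BBM, WOX5, SHR, SCR, SMB and FEZ) were above the floor of 3 counts in every library, as were all 5 markers of the root hair zone (RHD6, COBL9, EXPA7, EXPA18 and LRX1). Of 6 shoot markers, 2 to 4 were above it, with RBCS1B at 0 or 1 count in every library. Positions of genes are those of TAIR10.1. Levels are given as CPM, counts scaled to library size after TMM normalization, and per kilobase of exon where genes are compared with each other.

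At low phosphate the summed level of the 10 genes was higher than at high phosphate in each genotype, and PAP26 supplied a smaller share of it. Summed CPM per kilobase of exon were 595 in stop1, 549 in almt1 and 632 in wild type at low phosphate, against 293, 293 and 306 at high phosphate. PAP26, a major acid phosphatase of the vacuole, supplied 32.9% of the summed level in stop1, 37.7% in almt1 and 23.0% in wild type at low phosphate, against 72.1%, 73.9% and 76.0% at high phosphate. PAP17, a phosphatase that also has peroxidase activity, supplied 26.5%, 21.7% and 33.2% at low phosphate, against 3.31%, 2.49% and 1.92% at high phosphate. In wild type on low phosphate the order of levels per kilobase ran from PAP17 at 209, PAP12 at 159 and PAP26 at 145, through PAP10 at 73.9 and PAP22 at 19.2, to PAP11, PAP24, PAP14 and PAP23 at 7.90 to 4.54 and PAP25 at 0.417. PAP26 led in both mutants on low phosphate, with 196 in stop1 and 207 in almt1, and in all 3 genotypes on high phosphate, at 211 to 233. With 1 library a group, neighbours in these orders have no replicate spread to be separated by. In whole root tips, fewer cells of a type and less RNA per cell cannot be told apart.

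**Figure D2:**
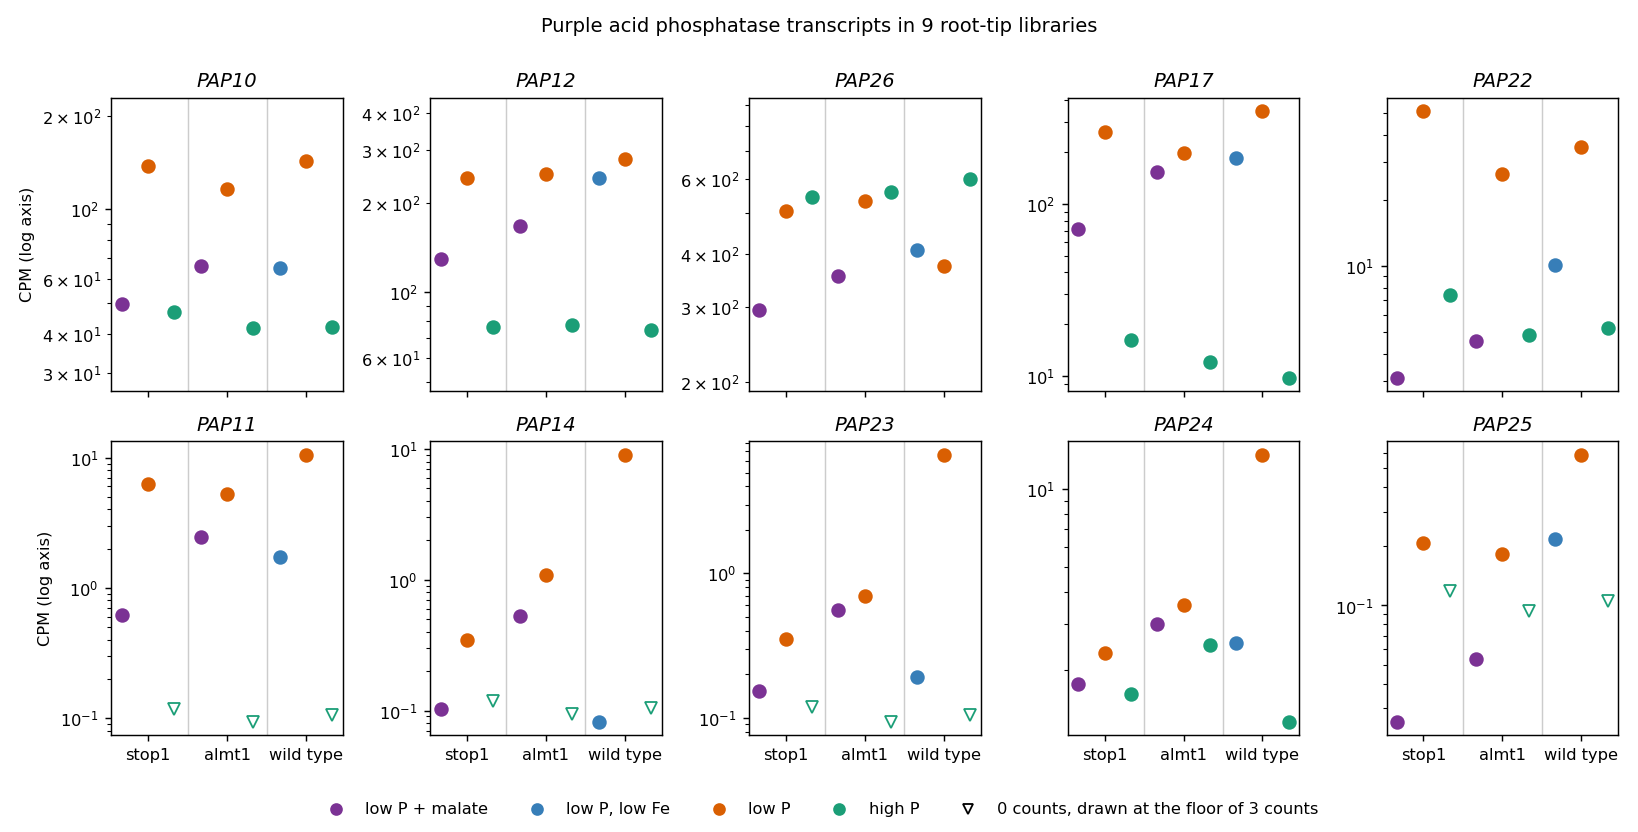
CPM of each gene (log axis, 1 panel per gene, with its own scale) in the 9 libraries, grouped as stop1, almt1 and wild type, with colours for the condition. Open triangles stand for 0 counts, drawn at the floor of 3 counts; PAP11, PAP14, PAP23 and PAP25 had 0 counts in all 3 high-phosphate libraries.

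The phosphate comparison asks which members respond to starvation in the root tip, and whether the response needs STOP1 or ALMT1. PAP10, PAP12, PAP17 and PAP22 rose at low phosphate in the fit over the 3 genotypes, by 1.59 to 4.38 on the log2 scale, and PAP11, PAP14 and PAP23, with no counts at high phosphate, passed the test too. PAP26 and PAP24 did not pass, and PAP25 had too few counts to enter. The count of 7 of 9 tested members higher stands beside a background of 1.81% of 20340 genes higher (368) and 3.71% called in either direction, but 3 of the 7 entered through their low-phosphate counts alone. Over the 6 members with counts in every library, the median log2 fold change was 1.67, against 0.003 over all genes tested. The fit takes the genotype as a block in edgeR's quasi-likelihood test, so its spread is the disagreement between genotypes, with 2 residual degrees of freedom. In single libraries 5 members were at least 2-fold higher in stop1, 7 in almt1 and 8 in wild type, beside 3.66%, 2.92% and 11.3% of genes. Without the stop1 pair of libraries none of the 10 passed, and 1 gene did in all; without the almt1 pair 5 passed and without the wild-type pair 7.

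PAP10 (AT2G16430, chr2:7120372-7123079, minus strand), an acid phosphatase bound to the root surface, had 138 CPM in stop1, 116 in almt1 and 143 in wild type at low phosphate, against 46.8, 41.7 and 42.1 at high phosphate. Every low-phosphate library lay above every high-phosphate one, and the log2 fold change was 1.59 ± 0.12 (SE; edgeR, Benjamini-Hochberg adjusted p = 0.0139). PAP12 (AT2G27190, chr2:11621222-11623618, minus strand), a secreted acid phosphatase, had 242, 250 and 281 CPM in stop1, almt1 and wild type at low phosphate, against 76.1, 77.4 and 74.5 CPM at high phosphate. The levels were closely alike among genotypes in each condition, and the log2 fold change was 1.75 ± 0.13 (adjusted p = 0.0139). PAP26 (AT5G34850, chr5:13107626-13111656, minus strand), which works in the vacuole and is also secreted, had 505 CPM in stop1, 534 in almt1 and 375 in wild type at low phosphate, against 546, 559 and 601 at high phosphate. The wild-type library on low phosphate was the lowest of the 6, and over the 3 genotypes the log2 fold change was -0.30 ± 0.19 (adjusted p = 0.388).

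PAP17 (AT3G17790, chr3:6089381-6091231, plus strand) had 261 CPM in stop1, 197 in almt1 and 347 in wild type at low phosphate, against 16.1, 12.1 and 9.75 at high phosphate. It was the member with the largest fold change among those with counts throughout, at 4.38 ± 0.30 on the log2 scale (adjusted p = 0.0138). The ratio of the single libraries was 16.3-fold in stop1, 16.3-fold in almt1 and 35.6-fold in wild type. The libraries do not keep the strand, and the locus AT3G17800, which overlaps PAP17, had 32.6 to 43.4 CPM in the 9 libraries. PAP22 (AT3G52820, chr3:19573916-19577141, minus strand) had 51.2 CPM in stop1, 26.4 in almt1 and 35.1 in wild type at low phosphate, against 7.39, 4.84 and 5.21 at high phosphate. The groups did not overlap, and the log2 fold change was 2.65 ± 0.14 (adjusted p = 0.00984). Its neighbour PAP21, which lies 182 bases away, had 0 to 2 counts in each library.

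PAP11, PAP14, PAP23 and PAP25 had 0 counts in all 3 high-phosphate libraries, where 3 counts, the floor used for a count of 0, amount to 0.0938 to 0.118 CPM. Folds for these genes set the low-phosphate level against this floor and leave out the counting error of the low-phosphate count. PAP11 (AT2G18130, chr2:7879308-7883935, minus strand) had 179 counts in stop1, 174 in almt1 and 215 in wild type at low phosphate. These levels were 52.8-fold, 56.1-fold and 99.8-fold the high-phosphate floor. Of the 50-base stretches of its exons 6.92% occur elsewhere in the genome, against none for the 9 other members, where a read of that length has no unique place. PAP14 (AT2G46880, chr2:19264573-19266456, minus strand) had 10 counts in stop1, 36 in almt1 and 185 in wild type at low phosphate. That is 2.95-fold, 11.6-fold and 85.9-fold the floor. PAP23 (AT4G13700, chr4:7957072-7958919, minus strand) had 10, 23 and 136 counts in stop1, almt1 and wild type at low phosphate, or 2.95-fold, 7.42-fold and 63.1-fold the floor. PAP14 and PAP23 thus had few counts in stop1 and many in wild type, while PAP11 stood at 6.24, 5.27 and 10.5 CPM in stop1, almt1 and wild type. PAP25 (AT4G36350, chr4:17173737-17175857, minus strand), a phosphatase of the cell wall, had 6, 6 and 12 counts at low phosphate, or 1.77-fold, 1.94-fold and 5.57-fold the floor. Adjusted p-values over the 3 genotypes were 0.0242 for PAP11, 0.0389 for PAP14 and 0.0462 for PAP23. PAP25 did not pass the filter on low counts in that fit.

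PAP24 (AT4G24890, chr4:12811354-12814456, minus strand) had 2.33 CPM in stop1, 3.57 in almt1 and 13.6 in wild type at low phosphate, against 1.61, 2.50 and 1.26 at high phosphate. Its wild-type library on low phosphate stood well above the other 5, and the log2 fold change over the 3 genotypes was 1.45 ± 0.68 (adjusted p = 0.264). PAP24 overlaps the locus AT4G24880, which had 11.6 to 17.6 CPM in the 9 libraries, so reads in the shared stretch cannot be assigned to 1 gene without strand.

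**Figure D3:**
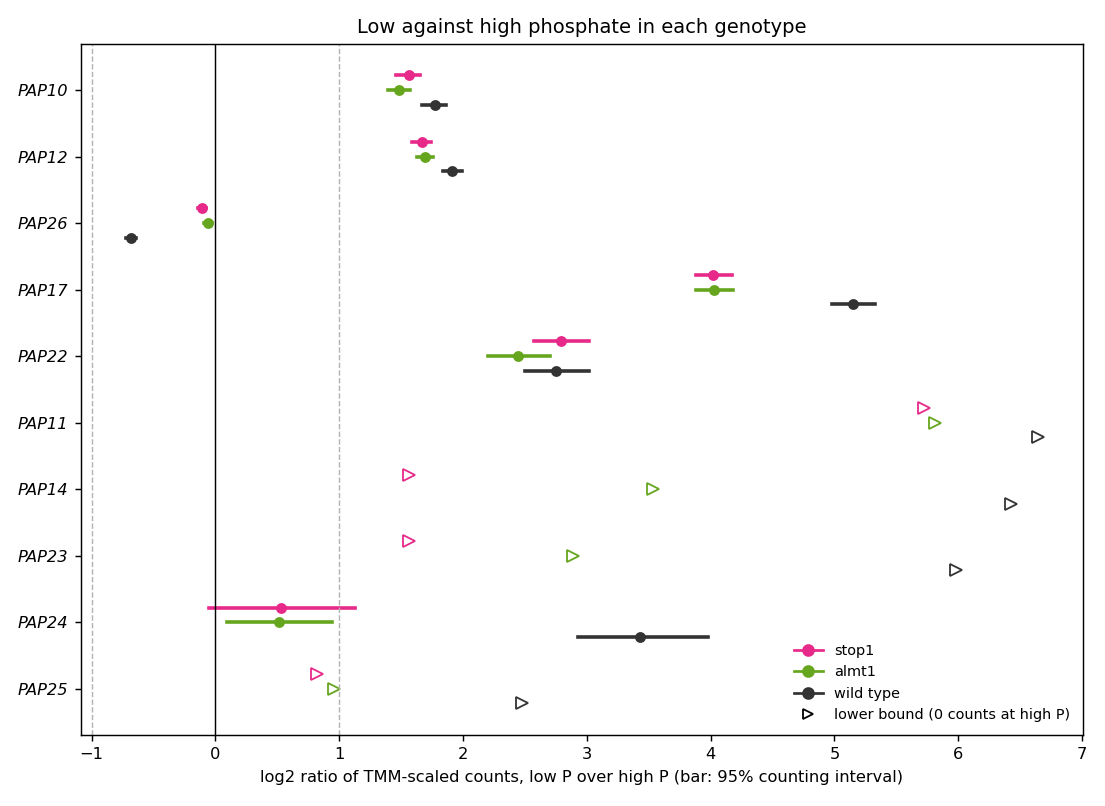
Log2 ratio of TMM-scaled counts, low over high phosphate, for each gene in stop1, almt1 and wild type (points, with bars for the 95% counting interval). Open triangles, labelled lower bounds, set the low-phosphate level against the floor where the high-phosphate library had 0 counts. They leave out the counting error of the low-phosphate count. Dashed lines mark a 2-fold difference. PAP10, PAP12 and PAP22 lie close together in the 3 genotypes, whereas PAP24 is at 0.53 in stop1, 0.51 in almt1 and 3.43 in wild type.

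Fitted within the mutants, with stop1 and almt1 standing in for replicates, the same 7 members passed: PAP10 at 1.52 ± 0.18 (adjusted p = 0.0127), PAP12 at 1.68 ± 0.14 (adjusted p = 0.00553), PAP17 at 4.03 ± 0.46 (adjusted p = 0.0177) and PAP22 at 2.64 ± 0.37 (adjusted p = 0.0289) on the log2 scale, with PAP11, PAP14 and PAP23 at adjusted p of 0.0423, 0.021 and 0.0313. The background was 2.3% of 21229 genes higher and 3.11% lower, and PAP11, PAP14 and PAP23 again entered through their low-phosphate counts alone. Over the 6 members with counts in every library the median log2 fold change was 1.60, against 0.009 over all genes tested. PAP24 at 0.52 ± 0.20 (adjusted p = 0.18), PAP26 at -0.09 ± 0.12 (adjusted p = 0.7) and PAP25 (adjusted p = 0.105) did not pass. Leaving out the stop1 or the almt1 library on high phosphate left no call among the members and none among all genes, leaving out the stop1 library on low phosphate left PAP11, and leaving out the almt1 library on low phosphate left PAP10, PAP11 and PAP12.

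Fitted within the wild type, 9 members were higher at low phosphate and PAP26 was lower. PAP11, PAP14, PAP23 and PAP25, 4 of the 9, had no counts at high phosphate and entered through their low-phosphate counts alone. PAP25 had 12 counts in the wild-type library on low phosphate and did not count as apart by 2-fold in that pair of single libraries. PAP10 stood at 1.78 ± 0.26 (adjusted p = 0.0122), PAP12 at 1.93 ± 0.20 (adjusted p = 0.00558), PAP17 at 5.17 ± 0.68 (adjusted p = 0.0139) and PAP22 at 2.76 ± 0.54 (adjusted p = 0.0283) on the log2 scale. PAP24 rose by 3.44 ± 0.29 (adjusted p = 0.00396), and PAP26 fell to 375 CPM at low phosphate, against 601 CPM at high phosphate, a log2 fold change of -0.67 ± 0.18 (adjusted p = 0.0438). PAP11, PAP14, PAP23 and PAP25, with 0 counts at high phosphate, had adjusted p of 0.0303, 0.00581, 0.0073 and 0.0447. The background there was high, 12% of 21229 genes higher and 9.79% lower, and the spread was borrowed from the mutants, since each wild-type condition is 1 library. Of the markers, PLT3, BBM, WOX5, RHD6 and LRX1 were higher and LHCB1.3 and RCA lower in the same comparison. Summed shoot marker levels were 10.6 to 21.9 CPM in the low-phosphate libraries of the 3 genotypes, against 36.9 to 78.1 CPM at high phosphate, and summed root hair zone markers were 452 to 551 CPM, against 376 to 410 CPM. The root hair zone markers did not move together. In wild type LRX1 had 196 CPM at low phosphate, against 24.8 CPM at high phosphate. EXPA7 had 122 CPM, against 141 CPM, and EXPA18 had 134 CPM, against 176 CPM. The part of shoot or root hair zone markers in the phosphatase results was not tested.

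The response itself was compared between mutants and wild type. The response of PAP24 was smaller in the mutants, with a difference of -2.92 ± 0.35 on the log2 scale (edgeR, adjusted p = 0.0276), and it was the only one of the 6 estimable members to pass, beside a background of 0.688% of 21229 genes lower and 0.561% higher. PAP17 had a response difference of -1.14 ± 0.72 (adjusted p = 0.399) and PAP26 one of 0.58 ± 0.22 (adjusted p = 0.185). PAP10 at -0.26 ± 0.31, PAP12 at -0.25 ± 0.23 and PAP22 at -0.13 ± 0.63 did not pass either, with adjusted p of 0.554 to 0.934. For PAP11, PAP14, PAP23 and PAP25 the difference cannot be estimated, because no genotype had counts at high phosphate. The call on PAP24 was lost when any 1 of the 4 mutant libraries on high or low phosphate was left out. Without either malate library, or with the 6 libraries on high and low phosphate alone, PAP17 passed as well.

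At low phosphate the transcripts of PAP23 and PAP24 were scarcer in the mutants than in wild type. PAP14 had a ratio as low in the single libraries without passing by edgeR, and 7 other members did not pass. PAP14 had 0.348 CPM in stop1 and 1.09 in almt1, against 9.01 in wild type. The log2 ratio to wild type was -4.69 in stop1 (95% counting interval -5.78 to -3.78) and -3.05 in almt1 (-3.61 to -2.53). Fitted over both mutants, PAP14 was at -3.63 ± 0.83 and did not pass by edgeR (adjusted p = 0.0698), but did by DESeq2. PAP23 had 0.348 CPM in stop1 and 0.696 in almt1, against 6.63 in wild type. Its log2 ratios were -4.25 (-5.34 to -3.33) and -3.25 (-3.96 to -2.61), and it was lower in the mutants by the fit, at -3.65 ± 0.68 (adjusted p = 0.0395). PAP24 was also lower, at -2.21 ± 0.41 (adjusted p = 0.0293), with log2 ratios of -2.54 in stop1 (-2.95 to -2.15) and -1.93 in almt1 (-2.25 to -1.61). These 2 of 10 members stand beside 4.48% of 21229 genes lower and 2.12% higher. In single libraries 3 members were at least 2-fold lower in stop1 and 4 in almt1, beside 8.6% and 8.86% of genes.

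PAP26 was at 0.46 ± 0.17 (adjusted p = 0.136), PAP17 at -0.61 ± 0.45 (adjusted p = 0.432), PAP11 at -0.88 ± 0.68 (adjusted p = 0.467) and PAP25 at -1.58 ± 0.71 (adjusted p = 0.221) on the log2 scale. PAP10, PAP12 and PAP22 were at -0.19, -0.20 and 0.14, with adjusted p of 0.499 to 0.88. Leaving out either mutant library on low phosphate left no call among the members. Summed root tip markers were 157 CPM in stop1 and 146 CPM in almt1, against 215 CPM in wild type. PLT3, BBM and WOX5, 3 of the 9, were lower in the mutants, and 3 of the 9 had positive log2 fold changes. PLT3 alone had 33.2 and 31.9 CPM in stop1 and almt1, against 89.4 CPM in wild type. SCR had 42.2 and 35.6 CPM, against 34.7 CPM. The part of these markers in the differences was not tested. The wild-type library on low phosphate is the one with 44.9% of reads not uniquely aligned, and its part in the differences between mutants and wild type was not tested.

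**Figure D4:**
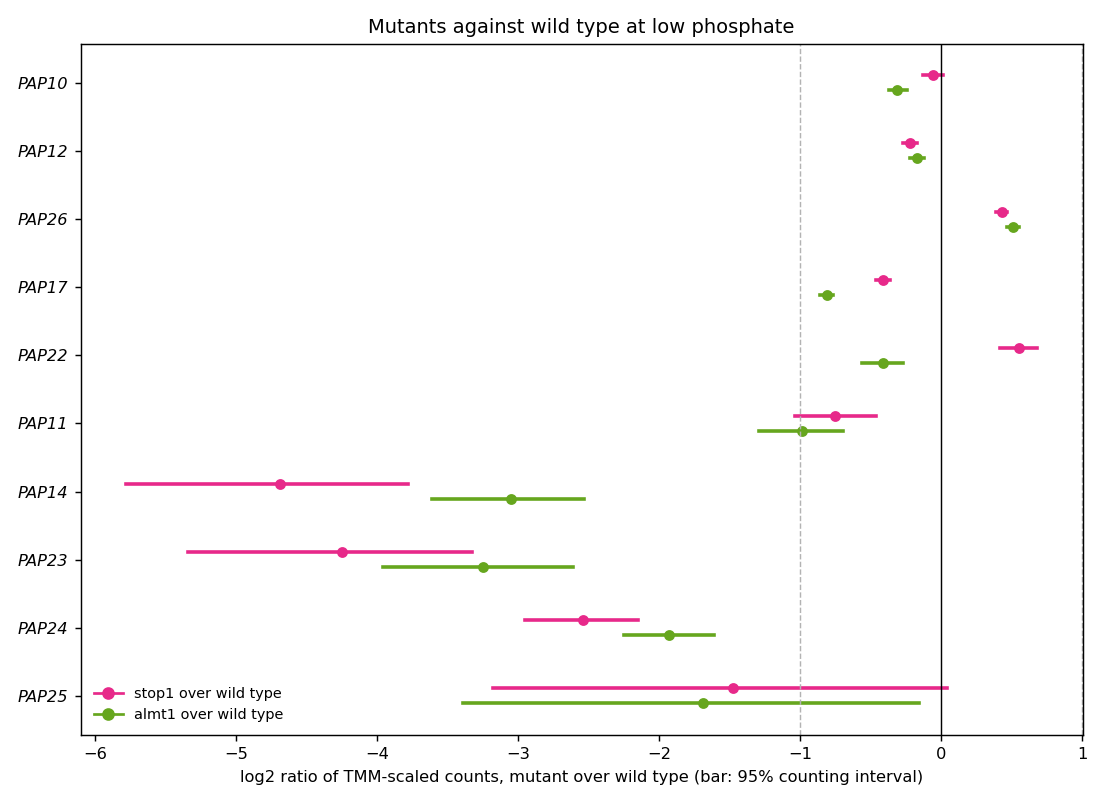
Log2 ratio of TMM-scaled counts at low phosphate, stop1 over wild type and almt1 over wild type (points, with bars for the 95% counting interval, dashed lines at a 2-fold difference). PAP14, PAP23 and PAP24 lie between -4.69 and -1.93 in both mutants, whereas PAP10, PAP12, PAP17, PAP22 and PAP26 lie within 2-fold.

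At high phosphate no member passed the test of the mutants against wild type, and none of 21229 genes did (0%; edgeR, with 893 genes at an unadjusted p under 0.05). In single libraries no member was 2-fold apart in either mutant, beside 2.98% of genes in stop1 and 1.76% in almt1. No member had an unadjusted p under 0.05 there, and DESeq2 called none of the 10. The 6 members with counts had log2 fold changes of -0.12 for PAP26 to 0.72 for PAP24. Between stop1 and almt1, taken over the 3 conditions, none of the 9 tested members passed, beside 0.249% of 20466 genes called; 3 members and 2037 genes had an unadjusted p under 0.05, and DESeq2 called no member. PAP14 at -1.86 ± 0.47, PAP23 at -1.34 ± 0.49 and PAP24 at -0.65 ± 0.18 were these 3, with adjusted p of 0.296, 0.45 and 0.314.

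The malate comparison shows these transcripts when malate is supplied to mutants of the exudation route. With malate at low phosphate PAP10, PAP12, PAP22 and PAP26 were lower than without it, and no member was higher. PAP22 moved most, with 3.10 CPM in stop1 and 4.56 in almt1 with malate, against 51.2 and 26.4 without it. Both malate libraries were below every high-phosphate library for this gene, and the log2 fold change was -3.26 ± 0.39 (edgeR, adjusted p = 0.0081). PAP10 had 49.9 and 65.8 CPM in stop1 and almt1 with malate, against 138 and 116 without it (log2 -1.13 ± 0.18, adjusted p = 0.00962). PAP12 had 129 and 167 CPM with malate, against 242 and 250 without it (log2 -0.74 ± 0.13, adjusted p = 0.0117). PAP26 had 295 and 354 CPM with malate, against 505 and 534 without it (log2 -0.68 ± 0.13, adjusted p = 0.012). The 4 of 10 members lower are set against 19.4% of 21229 genes lower and 17.2% higher, so calls were frequent among all genes. In single libraries 4 members were at least 2-fold lower in stop1 and 3 in almt1, beside 13.7% and 7.07% of genes.

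PAP17 and PAP11 had lower ratios of malate over none in stop1 than in almt1. PAP17 overlaps AT3G17800, and ambiguous reads were 2.61% in stop1 and 2.55% in almt1 with malate, against 1.62% and 1.49% without it. The part of such reads in the PAP17 ratios was not tested. PAP17 had 71.1 CPM in stop1 and 153 in almt1 with malate, against 261 and 197 without it, log2 ratios of -1.88 (95% counting interval -1.94 to -1.81) and -0.37 (-0.42 to -0.32). PAP11 had 0.614 and 2.44 CPM in stop1 and almt1 with malate, against 6.24 and 5.27 without it, log2 ratios of -3.34 (-4.02 to -2.73) and -1.11 (-1.49 to -0.74). Over both mutants PAP17 at -1.06 ± 0.41 (adjusted p = 0.0994) and PAP11 at -2.08 ± 0.60 (adjusted p = 0.0625) did not pass, and the difference between the mutants has no test with 1 library each. PAP14 at -1.23 ± 0.41 (adjusted p = 0.0665), PAP23 at -0.61 ± 0.44 (adjusted p = 0.317), PAP24 at -0.32 ± 0.20 (adjusted p = 0.239) and PAP25 at -2.20 ± 0.88 (adjusted p = 0.103) did not pass; PAP25 had only 1 and 2 counts with malate. PAP14 and PAP23, low in the mutants without malate, were not higher with it, at 4 and 20 counts for PAP14 and 6 and 21 for PAP23 with malate, against 10 and 36, and 10 and 23, without it. The summed level of the 10 genes per kilobase was 259 in stop1 and 364 in almt1 with malate, against 595 and 549 without it. Summed root tip markers were 233 and 227 CPM with malate, against 157 and 146 CPM without it, and 6 of 9 were higher; summed root hair zone markers were 378 and 493 CPM, against 456 and 452 CPM. Their part was not tested. Without the stop1 library on low phosphate no member passed, and without the almt1 library on low phosphate PAP11 and PAP22 did.

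Low iron at low phosphate was tested in wild type. PAP10, PAP14, PAP23 and PAP24 were lower with low iron than with iron, and the other 6 did not pass. Each of these conditions is 1 library and no mutant had low iron, so the spread behind the p-values came wholly from the mutant libraries. PAP14 had 3 counts with low iron, against 185 with iron, or 0.0822 CPM against 9.01 CPM. Its log2 ratio was -6.78 (95% counting interval -9.07 to -5.21), and the fit gave -6.72 ± 0.58 (edgeR, adjusted p = 0.0032). PAP23 had 7 counts with low iron, against 136 with iron, a log2 ratio of -5.11 (-6.45 to -4.03; fit -5.10 ± 0.56, adjusted p = 0.00505). PAP24 had 2.55 CPM with low iron, against 13.6 with iron, a log2 ratio of -2.42 (-2.77 to -2.07; fit -2.43 ± 0.27, adjusted p = 0.00352). Under low iron PAP14 and PAP23 (0.192 CPM) lay below their levels in both mutants on low phosphate, and PAP24 lay between its levels in stop1 and almt1. PAP24 overlaps AT4G24880, and reads ambiguous between genes were 2.65% with low iron, against 0.956% with iron. The part of such reads in the PAP24 difference was not tested. PAP10 had 65.0 CPM with low iron, against 143 with iron (fit -1.15 ± 0.25, adjusted p = 0.0213).

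Of the 6 that did not pass, PAP22 had 10.1 CPM, against 35.1 with iron (log2 -1.81 ± 0.51, adjusted p = 0.0507), and PAP11 had 1.73 CPM, against 10.5 (log2 -2.61 ± 0.82, adjusted p = 0.0846). PAP17 had 186 CPM, against 347 (log2 -0.92 ± 0.57, adjusted p = 0.272), and PAP25 had 8 counts, against 12 (log2 -1.41 ± 0.80, adjusted p = 0.235). PAP12 had 242 CPM, against 281 (log2 -0.23 ± 0.19, adjusted p = 0.387), and PAP26 had 409 CPM, against 375 (log2 0.11 ± 0.18, adjusted p = 0.65). All members except PAP14 thus kept a level above the floor of 3 counts in this library, and the summed level per kilobase was 449, against 632 with iron and 306 at high phosphate. The background was 18.1% of 21229 genes lower and 12.5% higher, and 7 members were at least 2-fold lower between these single libraries, beside 16.9% of genes. The 3 comparisons that turn on the wild-type library on low phosphate, against high phosphate, against low iron and against the mutants, share that library, cannot be made without it, and are not independent of each other. Summed root tip markers were 186 CPM with low iron, against 215 CPM with iron, with PLT3, BBM and WOX5 lower and SCR and SMB higher, and root hair zone markers were 672 CPM, against 551 CPM; their part was not tested.

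**Figure D5:**
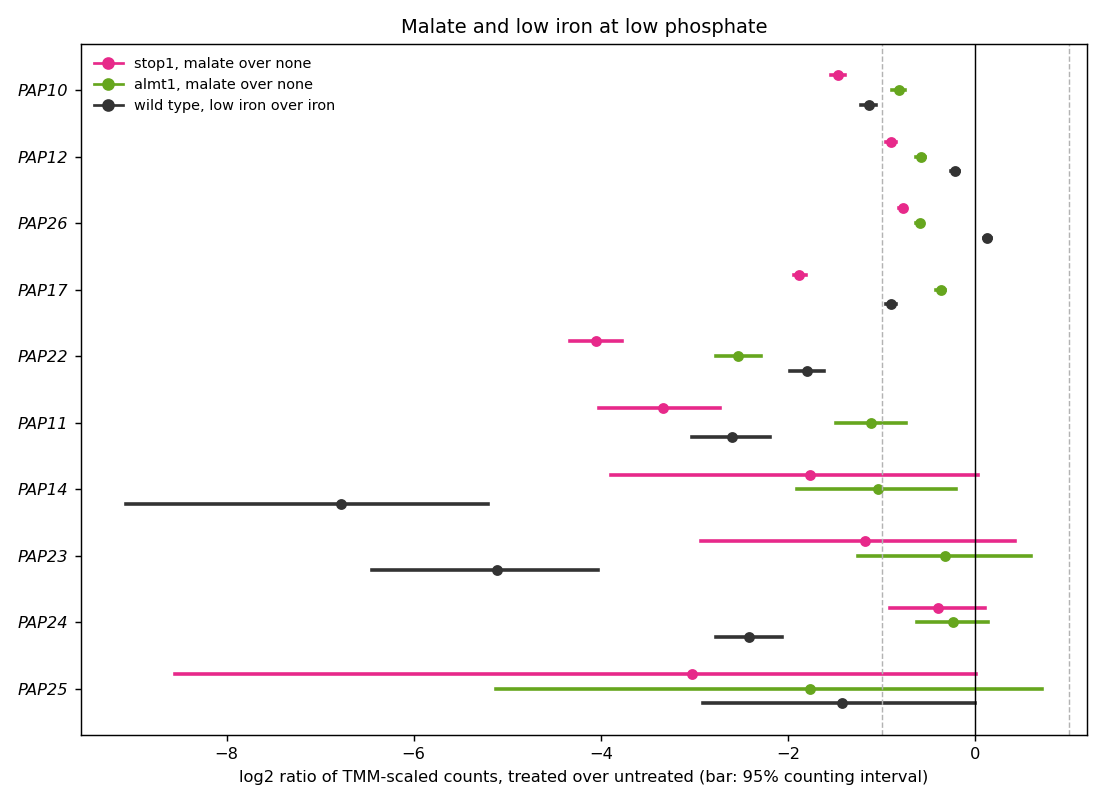
Log2 ratio of TMM-scaled counts at low phosphate, malate over none in stop1 and in almt1 and low iron over iron in wild type (points, with bars for the 95% counting interval, dashed lines at a 2-fold difference). PAP22 is lowest under malate, at -4.05 and -2.53, and PAP14 and PAP23 are lowest under low iron, at -6.78 and -5.11.

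Of the other 19 purple acid phosphatase genes, 14 were tested over the 3 genotypes, with a median log2 fold change of 0.06. PAP1, PAP6 and PAP7 were higher at low phosphate, beside 1.81% of all genes, and none was lower. PAP1 was at 1.87 ± 0.24 (adjusted p = 0.0321) and PAP7 at 1.46 ± 0.10 (adjusted p = 0.0138). PAP6 had 66 counts in stop1, 92 in almt1 and 16 in wild type at low phosphate, against 0 in each at high phosphate, with the wild type lowest, where it was highest for PAP14 and PAP23. The 7 of the 19 with a P1BS match in the 300-base window were PAP1, PAP5, PAP6, PAP8, PAP16, PAP19 and PAP20. Of these PAP1 and PAP6 were higher, PAP8 at 0.12 ± 0.13 (adjusted p = 0.604) and PAP20 (adjusted p = 0.281) did not pass, and PAP5, PAP16 and PAP19 had too few counts to be tested. PAP7, which was higher, held none. With malate 5 of the 14 were lower (PAP3, PAP4, PAP7, PAP8 and PAP20), beside 19.4% of all genes. Under low iron 4 were (PAP8, PAP18, PAP20 and PAP27), beside 18.1%, PAP20 by -6.63 ± 0.80 (adjusted p = 0.00424). At low phosphate PAP27 was lower in the mutants than in wild type, at -0.66 ± 0.14 (edgeR, adjusted p = 0.0435), beside 4.48% of all genes lower.

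Acid phosphatases of another fold, the HAD class to which the vegetative storage proteins VSP1 and VSP2 belong, had no member higher. Of 8 tested over the 3 genotypes, 1, AT4G29270, was lower and 7 did not pass, beside 1.81% of all genes higher and 1.9% lower. With malate 5 of 9 were lower (AT1G04040, AT2G38600, AT4G29270, AT5G44020 and AT5G51260), beside 19.4% of all genes. Under low iron 2 of 9 were lower, beside 18.1%, and 1 was higher, beside 12.5%. Of 8 genes that scavenge phosphate from nucleic acids and small esters, 4 were higher over the 3 genotypes, beside 1.81% of all genes. PECP1, PPsPase1 and GDPD1 led at 9.80, 5.21 and 4.23 on the log2 scale, with the ribonuclease RNS1 at 3.74. PECP1 is a phosphoethanolamine and phosphocholine phosphatase, PPsPase1 a pyrophosphatase and GDPD1 a glycerophosphodiester phosphodiesterase. With malate 4 of these 8 were lower, beside 19.4% of all genes, and under low iron 7 of 8 were, beside 18.1%. Of 11 tested genes listed with the regulators of the starvation response, SPX1, SPX3, IPS1 and PHF1 were higher, beside 1.81% of all genes. SPX1, which restrains PHR1, was at 6.18 ± 0.30 (edgeR, adjusted p = 0.00984). PHR1 itself had 49.1 to 69.3 CPM in the 9 libraries. With malate 6 of the 12 genes of this list were lower, beside 19.4% of all genes, among them SPX1 at -1.27 ± 0.28 (edgeR, adjusted p = 0.0235). Under low iron 7 of 12 were, beside 18.1%, SPX1 at -1.52 ± 0.39 (edgeR, adjusted p = 0.0393).

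Across the 9 libraries the members' patterns were not all alike. Pearson's r of log2 CPM (prior count 2) was 0.99 between PAP14 and PAP23, 0.91 between each of them and PAP24, 0.99 between PAP11 and PAP17, 0.98 between PAP12 and PAP17, 0.66 between PAP22 and PAP17, and -0.53 between PAP26 and PAP17. These describe 9 libraries of 9 different groups, which share the phosphate treatment and the scaling. PAP14, PAP23 and PAP24 had 9.01, 6.63 and 13.6 CPM in the wild-type library on low phosphate. In every other library they had at most 1.09, 0.696 and 3.57 CPM. In that wild-type library 44.9% of reads were not uniquely aligned. How far the r among these members depends on it was not tested. Among 16728 genes with at least 5 CPM in some library, the 5 with a pattern most like that of PAP17 were G3Pp1 (r = 0.999), AT5G17340 (0.995), PAP1, PECP1 and PHT1;8 (0.99 each). For PAP22 they were PAP7 (0.973), AT2G38740 (0.97), ABCA2 (0.968), AT5G62130 and AT4G33920 (0.965 each), and for PAP10 they were AT1G19200 (0.989), ABCG16 (0.983), SRO3 (0.982), AT2G42690 (0.981) and AT5G63130 (0.977). The genes nearest PAP17 included other starvation genes named above, and the gene nearest PAP22 was another purple acid phosphatase, PAP7.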

How the data were processed

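Per the labels' protocols, RNA was extracted with TRIzol and sequenced as TruSeq mRNA libraries, which carry no strand information. The deposited values are raw counts of reads per locus, with TopHat2, HTSeq and TAIR10 named in the submitters' processing notes; versions were not given in the sources used here. Each of the 9 files listed 33602 loci and 5 summary lines, which were kept out of library sizes; reads outside 1 gene were 6.95% to 50.1% of those recorded. The title of the stop1 malate library reads as high phosphate, and its characteristics, followed here, give low phosphate with malate. No sample column lacked a group.

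Tests were edgeR 4.0.16 quasi-likelihood tests (R 4.3.3, limma 3.58.1, TMM scaling, robust dispersion) over all genes passing filterByExpr (min.count 10, min.total.count 15), at a Benjamini-Hochberg adjusted p of 0.05; DESeq2 1.42.0 was an alternative. There were 9 fits. Low against high phosphate used 6 libraries with genotype as a block, and stop1 against almt1 used the 6 mutant libraries with condition as a block; the other 7 used 9 libraries. Residual degrees of freedom were 3 for mutants against wild type and 2 elsewhere. Groups had 1 library, so genotypes or conditions stand in for replicates, and p-values measure only the spread between these samples. The SE is the log2 fold change divided by the square root of the F statistic. The fits were tested on simulated data.

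The 10 pairs of single libraries carry exact conditional binomial 95% intervals, with no p-value; a pair counted as apart at 2-fold or more with an interval excluding equality. Folds for a count of 0 set the level of the other library, taken without its counting error, against 3 counts per library. Intervals and floors cover counting error only. Gene models, promoters and names came from RefSeq on TAIR10.1, joined by locus (32835 of 33602 matched, all 10 members included), not from the counted annotation. Named genes are all 10 members, listed genes that passed, at most 4 per list and comparison by size of change beyond those counted by name, and the 5 genes most like PAP10, PAP17 and PAP22. The members and lists were chosen with earlier results of these data known. Alternatives were other scaling, no filter, DESeq2, leaving out libraries and fewer libraries per fit; a fit on the 6 mutant libraries alone was added after seeing the data.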

Additional observations from a re-analysis of the deposited data

Results flagged for a closer look

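The response of PAP24 to low phosphate passed the test of a difference between the mutants and wild type. The difference of the log2 responses, mutants minus wild type, was -2.92 by edgeR, with an adjusted p of 0.0276. This call was lost when any mutant library on high or low phosphate was left out. It rests on a wild-type low-phosphate library with 44.9% of reads not uniquely aligned, and PAP24 overlaps the locus AT4G24880. PAP24 had 67 counts in stop1, 118 in almt1 and 279 in wild type at low phosphate, against 41, 80 and 36 at high phosphate. The single-library log2 ratio of low over high phosphate was 0.53 in stop1 (95% counting interval -0.05 to 1.13), 0.51 in almt1 (0.09 to 0.94) and 3.43 in wild type (2.93 to 3.98).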

How the results depend on the processing

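No paired analysis was possible because each group is 1 library and the labels give no replicate numbers; the blocks in the fits are the genotype or the condition and no replicate. Leaving out 1 library or 1 pair gave 0 to 7 called members for low against high phosphate over the 3 genotypes, 0 to 8 in the mutants, 0 to 2 for the difference of responses, 0 to 6 for malate, 3 to 7 for low iron, 0 to 1 for stop1 against almt1 and 0 to 3 for mutants against wild type at low phosphate. The 6 libraries on high and low phosphate alone gave 2 for the difference of responses, and DESeq2 gave 4 for mutants against wild type at low phosphate (PAP14, PAP23 and PAP24 lower, PAP26 higher). Scaled by total gene counts, 1 member was apart by 2-fold with malate in almt1 and 1 in almt1 over wild type at high phosphate, in place of 3 and 0. Where fewer libraries entered, fewer residual degrees of freedom remained; otherwise the cause was not tested. Values of single members that changed sign on leaving out 1 library or pair had not passed the test. For the difference of responses PAP22 ran from -0.63 to 0.29. For stop1 against almt1 PAP10 ran from -0.084 to 0.22, PAP11 from -1.92 to 0.24 and PAP17 from -0.36 to 0.41. For mutants against wild type PAP10 ran from -0.02 to 0.16 and PAP22 from -0.11 to 0.52 at high phosphate, and PAP22 from -0.43 to 0.54 at low phosphate. In all, 88 counts of members stayed within 1.5 times the value reported and 22 did not. Of the values of single members under other settings, 841 kept direction and side of the threshold or stayed within their interval, 63 no longer passed, 29 newly passed, 16 without a test moved beyond their interval and 9 changed sign.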
